A study of Mus musculus with 6 samples.

Results

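Chemokine and formyl peptide receptors are cell surface receptors that let blood cells sense chemical trails and move along them. The 8 genes described here were Ccr1, Ccr2, Cx3cr1, Cxcr2, Cxcr3, Cxcr4, Fpr1 and Fpr2, taken by name and looked up through their Ensembl IDs. All 8 were among the 49585 gene IDs of the count table. The filter on low counts kept 7 of them among 15812 genes tested, and Cxcr3 was the one it removed.

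Levels were read by RNA-seq in a mouse model of acute myeloid leukemia in which KMT2A-MLLT3 drives the disease. This fusion joins KMT2A, which methylates histones, to MLLT3, a binding partner of DOT1L, itself a histone methyltransferase. Marrow of sick mice was transduced with DOT1L, populations that expressed it at high and at low level were sorted, and RNA was taken 3 days after the sort. The 6 libraries comprised 2 labelled DOT1L High, 2 labelled DOT1L Low and 2 labelled NT, with 1 of each label from each of the leukemias K3174 and K3117. The labels do not spell out NT or say whether those cells were transduced or sorted. All 3 labels carry the fusion, and all cells were grown in DMEM with serum, mIL3, mIL6 and mSCF, so the receptors were read in cultured cells under cytokines and not in marrow. How the DOT1L level was read in the sort, and which species' DOT1L was introduced, were not given in the sources used here.

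These receptors are coupled to inhibitory G proteins. Binding of a ligand frees G protein subunits that activate phosphoinositide 3-kinase gamma, phospholipase C beta and Rac, and arrestins then switch the receptor off. In the myeloid lineage Cxcr2 is known from neutrophils, Ccr2 and Cx3cr1 from monocytes, and Ccr1, Fpr1 and Fpr2 from both. Cxcr4 holds immature and mature cells in the marrow, and Cxcr3 is best known from T and NK cells.

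Total counts ran between 22908445 and 33265848 per library, and genes of the mitochondrial genome took 1.17% to 1.70% of them. Dot1l had 136 and 150 CPM (counts scaled to the size of each library, with TMM factors) in the High libraries of K3174 and K3117, 152 and 184 CPM in the Low libraries, and 158 and 128 CPM in the NT libraries. Its log2 fold change was -0.00 ± 0.15 (SE) for High over NT and 0.23 ± 0.14 for Low over NT, with adjusted p = 1.0 and 0.62, so the counts of the mouse gene did not follow the labels. High, Low and NT therefore name libraries by their label.

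Markers of other cell types moved with the labels. At the threshold given below, 10.0% of all genes tested rose and 7.32% fell in High over NT. The 13 late neutrophil markers summed to 7178 and 1686 CPM in the High libraries of K3174 and K3117, 1355 and 189 CPM in the Low libraries, and 175 and 77.5 CPM in the NT libraries, and 11 of the 12 tested rose in High over NT, led in level by S100a9, S100a8 and Ngp. The 10 monocyte markers summed to 2197 to 3130 CPM in High, 1224 to 1469 CPM in Low and 975 to 1358 CPM in NT, and 5 rose, Lyz2 and Ly6c2 among them, while 1 fell. The 8 dendritic cell markers summed to 124 to 196 CPM in High, 202 to 298 CPM in Low and 296 to 458 CPM in NT, and 5 of the 7 tested fell, among them Tcf4 and Flt3. The 6 mast cell and basophil markers summed to 369 to 719 CPM in High, 89.0 to 223 CPM in Low and 40.0 to 110 CPM in NT, and 4 of the 5 tested rose, led by Hdc and Cpa3. Of the T and NK cell markers Cd3e, Cd8a and Ncr1 had 0 counts in every library and Nkg7 alone was tested and rose, with list sums of 42.8 to 54.8 CPM in High, 24.3 to 44.7 CPM in Low and 8.09 to 22.1 CPM in NT. Neither of the 2 tested B cell markers passed (sums of 11.4 to 11.5 CPM in High, 10.7 to 13.4 CPM in Low and 9.56 to 17.2 CPM in NT), and Ms4a1 was at 0. The 6 erythroid genes summed to 7.44 to 8.89 CPM in High, 1.44 to 5.09 CPM in Low and 6.61 to 19.0 CPM in NT; of the 5 tested Hbb-bt fell and none rose, with 2 higher at an unadjusted p under 0.05, 0 called higher by DESeq2 and by limma voom, and a list median of 0.59 on the log2 scale. Of 5 tested megakaryocyte genes (sums of 51.6 to 65.2 CPM in High, 15.9 to 31.9 CPM in Low and 35.3 to 35.7 CPM in NT) Pf4 rose. Of 2 tested stromal and endothelial genes (115 to 182 CPM in High, 126 to 213 CPM in Low and 152 to 195 CPM in NT) neither passed, with Col1a2 and Cxcl12 at 0. Nearly all of these sums came from Pecam1, at 114 to 213 CPM, and Col1a1, the other tested gene, had 0.774 CPM or less. Without the leukemia as a block, 3 late neutrophil, 2 monocyte, 1 dendritic cell and 1 mast cell and basophil marker passed by edgeR, against 11, 6, 5 and 4 with it, and Nkg7, Hbb-bt and Pf4 did not pass. In bulk RNA, fewer cells of a type and less RNA per cell cannot be told apart, and the part of these cell types in the receptor differences was not tested.

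Levels were scaled by exon length, with the annotated exons of all isoforms of a gene merged. By this scale Cxcr4 had the highest mean of the 8 receptors over the 6 libraries, 48.1 CPM per kb. It was the highest in each library except K3117 NT, where Ccr2 stood at 35.3 and Cxcr4 at 33.4 CPM per kb. By this mean Ccr2 followed at 13.9 CPM per kb, Cx3cr1 at 6.64, Fpr2 at 5.59, Ccr1 at 5.13, Fpr1 at 2.57, Cxcr2 at 0.596 and Cxcr3 at 0.0528 CPM per kb. The ranges over libraries of Ccr2, Cx3cr1, Fpr2, Ccr1 and Fpr1 overlapped, from 5.33 to 35.3 CPM per kb for Ccr2 and from 0.544 to 6.85 CPM per kb for Fpr1, while Cxcr4 stood above Cx3cr1 and the genes below it in every library. The make-up differed by label. Fpr1 and Fpr2 together gave 14.1% and 25.5% of the summed CPM per kb of the 8 receptors in the High libraries of K3174 and K3117, against 2.44% and 5.28% in the Low libraries and 3.57% and 5.13% in the NT libraries. Ccr1 and Ccr2 together gave 13.2% and 18.6% in High, 11.4% and 16.9% in Low, and 24.9% and 47.8% in NT. Per kb, Ccr2 was at 0.770 and 0.754 of the Fpr2 level in the High libraries of K3174 and K3117, at 4.80 and 4.22 times that level in the Low libraries, and at 8.27 and 11.5 times in the NT libraries. The level per kb was thus higher for Fpr2 than for Ccr2 in both High libraries and lower in the other 4. This order depends on the scaling, with 6760 bases of exon for Ccr2 and 1296 for Fpr2. In CPM without it, Ccr2 was above Fpr2 in every library. Which isoforms were expressed was not tested, so the shares and ratios per kb are uncertain.

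**Figure D1:**
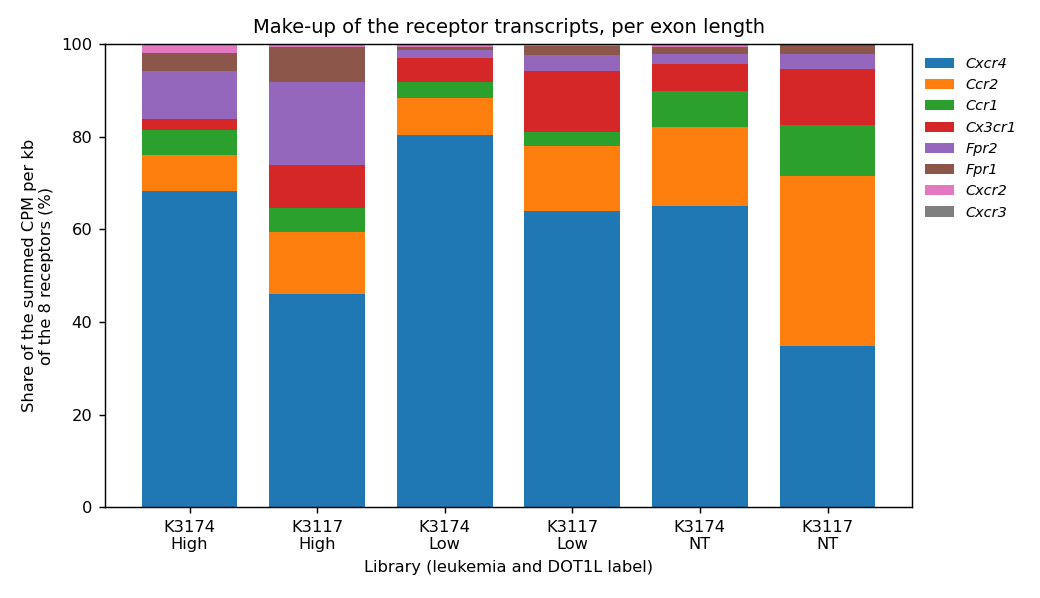
Share of each receptor in the summed CPM per kb of exon of the 8 receptors (vertical axis, percent), with 1 bar per library ordered High, Low, NT and K3174 left of K3117 in each label. The formyl peptide receptors Fpr1 and Fpr2 reach 14.1% and 25.5% in the High libraries and stay at 5.28% or below in the other 4, and Ccr1 and Ccr2 reach 47.8% in the K3117 NT library. Exon lengths merge all annotated isoforms, and the shares depend on them.

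Against NT, the High libraries had 6 of the 7 tested receptors past the threshold, an adjusted p of 0.05 by edgeR's quasi-likelihood test, in which the leukemia was a block, compared with 17.3% of all genes tested. Fpr1, Fpr2 and Cxcr2 rose (10.0% of all genes rose), and Ccr1, Ccr2 and Cx3cr1 fell (7.32% of all genes fell). In Low over NT 2 of 7 passed, against 3.34% of all genes: Ccr1 and Ccr2 fell (1.29% of all genes) and none rose (2.05% of all genes), with 1 higher at an unadjusted p under 0.05 and 0 called higher by DESeq2 and by limma voom. In High over Low 4 of 7 passed, against 5.48% of all genes: Fpr1, Fpr2, Cxcr2 and Ccr1 rose (4.12% of all genes) and none fell (1.35% of all genes), with 1 lower at an unadjusted p under 0.05 and 0 called lower by DESeq2 and by limma voom. The median log2 fold change of the 7 receptors was 0.32 for High over NT, -0.41 for Low over NT and 1.06 for High over Low, with -0.01, -0.01 and 0.00 for all genes. These contrasts share libraries. Without the leukemia as a block, 0 of the 7 passed in any of them by edgeR, with 4, 2 and 4 at an unadjusted p under 0.05 for High over NT, Low over NT and High over Low. The count for High over Low was 2 (Fpr1 and Fpr2) without the K3174 High library, and 6 without either NT library.

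**Figure D2:**
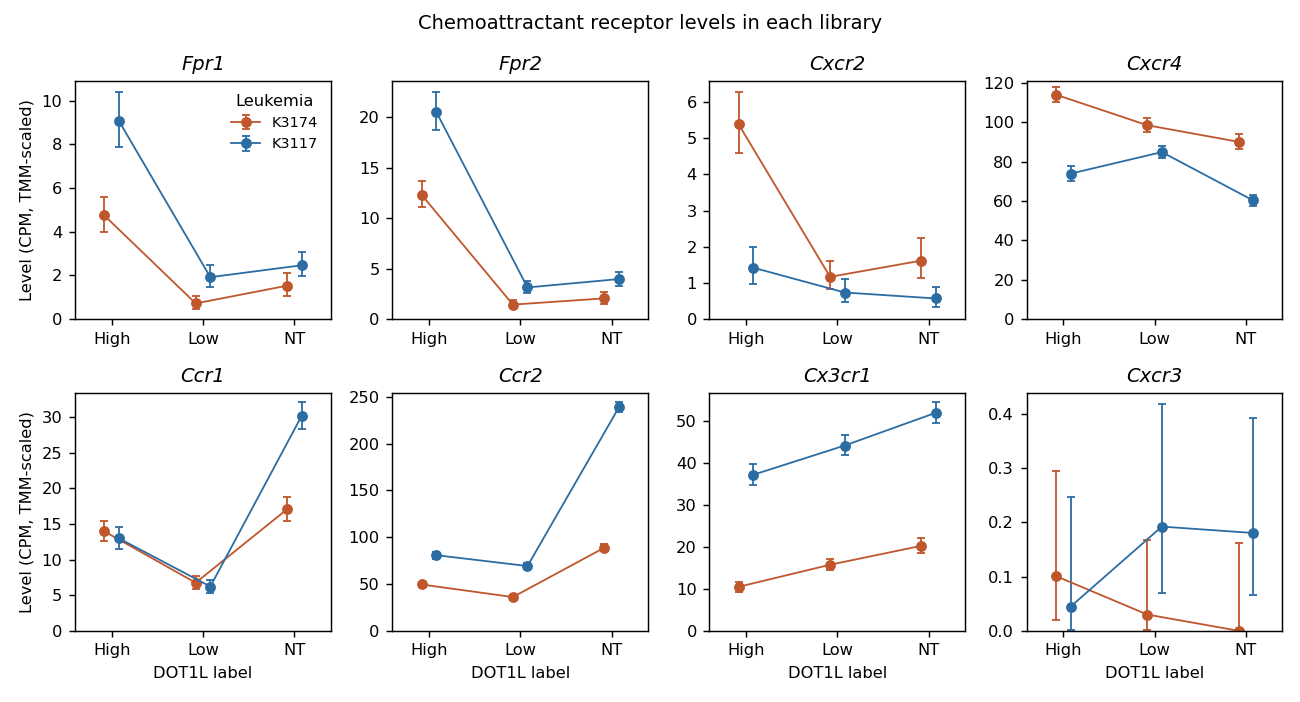
Level of each receptor (CPM with TMM scaling, linear axes from 0, a separate scale per gene) in the High, Low and NT libraries of K3174 and K3117, 1 point per library, with bars for the 95% Poisson interval of the count. Both High points of Fpr1 and Fpr2 lie above all other points, and both NT points of Ccr1 and Ccr2 lie above the other points of the same gene.

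**Figure D3:**
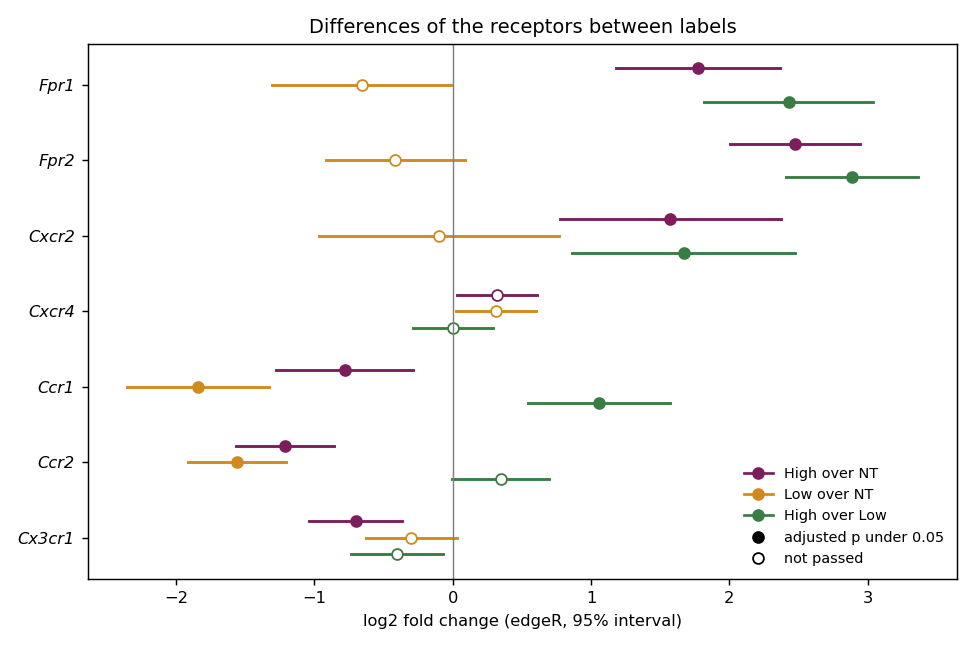
log2 fold changes of the 7 tested receptors (horizontal axis) with 95% intervals from edgeR's fit for High over NT, Low over NT and High over Low; filled points had an adjusted p under 0.05. Fpr1, Fpr2 and Cxcr2 lie to the right for both contrasts of High and near or left of 0 for Low over NT, and Ccr1 and Ccr2 lie to the left of 0 for both contrasts over NT.

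Fpr1 and Fpr2 bind N-formyl peptides, which bacteria and damaged mitochondria release. In mice Fpr2 also binds annexin A1, serum amyloid A and cathelicidin. Fpr2 (ENSMUSG00000052270.7) had 12.3 and 20.5 CPM in the High libraries of K3174 and K3117, 1.44 and 3.14 CPM in the Low libraries, and 2.06 and 3.97 CPM in the NT libraries. Its mean was 16.4 ± 5.81 CPM in High, 2.29 ± 1.20 CPM in Low and 3.01 ± 1.35 CPM in NT (SD, n = 2 each). Both High libraries stood above all others, and the Low and NT libraries overlapped. Fpr2 rose 5.55-fold in High over NT (log2 2.47 ± 0.21, 95% interval 4.01- to 7.69-fold, adjusted p = 1.7e-05; 0.064 without the block) and 7.40-fold in High over Low (log2 2.89 ± 0.22, adjusted p = 8e-05; 0.29 without the block). Low over NT had a log2 fold change of -0.41 ± 0.23 (adjusted p = 0.54), with an interval from -0.92 to 0.09.

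Fpr1 (ENSMUSG00000045551.7) had 4.75 and 9.07 CPM in the High libraries of K3174 and K3117, 0.720 and 1.92 CPM in the Low libraries, and 1.53 and 2.47 CPM in the NT libraries. Its mean was 6.91 ± 3.06 CPM in High, 1.32 ± 0.850 CPM in Low and 2.00 ± 0.660 CPM in NT (SD, n = 2 each). As for Fpr2, the lower High library lay above the highest of the other 4. Fpr1 rose 3.42-fold in High over NT (log2 1.77 ± 0.27, adjusted p = 0.0008; 0.16 without the block) and 5.39-fold in High over Low (log2 2.43 ± 0.28, adjusted p = 0.00048; 0.36 without the block). Low over NT was -0.66 ± 0.30 (adjusted p = 0.37), which does not show that Low and NT were alike. Both genes kept their calls in High over NT and High over Low when any 1 of the 6 libraries was left out. Per kb, Fpr2 was 2.65 and 2.31 times Fpr1 in the High libraries of K3174 and K3117, 2.04 and 1.67 times in the Low libraries, and 1.37 and 1.64 times in the NT libraries.

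The pair lies head to head on chromosome 17 (GRCm38), with Fpr1 on the minus strand from 17876471 to 17883940 and Fpr2 on the plus strand from 17887824 to 17893952, 3883 bases apart. Lnpep, the other tested gene in the stretch around them, had a log2 fold change of -0.11 ± 0.12 in High over NT (adjusted p = 0.60). Of the 5 other formyl peptide receptor genes, Fpr3 had 1 count in the High and 1 in the Low library of K3117 and 0 elsewhere, and Fpr-rs3, Fpr-rs4, Fpr-rs6 and Fpr-rs7 had 0 counts in all 6 libraries, so none was tested. Fpr2 shares 31.5% of its 50-base words with Fpr3 and the gene Gm5966 and overlaps the annotated span of Fpr3, so how reads were split among these genes is uncertain; Fpr1 shares 0.08% of its words. The stretches of 250 bases before both starts are printed because the genes moved together. They come from the RefSeq promoter table of GRCm38.p6, in which all 8 receptors were found, read 5′ to 3′ on the gene's strand, with capitals for matches on either strand to GAGGAA (the core bound by ETS factors such as PU.1), TTGCNNAA (a core of C/EBP sites) or TATAAA (the TATA box). The windows are chr17:17883940-17884189 on the minus strand for Fpr1 and chr17:17887574-17887823 on the plus strand for Fpr2.
Fpr1: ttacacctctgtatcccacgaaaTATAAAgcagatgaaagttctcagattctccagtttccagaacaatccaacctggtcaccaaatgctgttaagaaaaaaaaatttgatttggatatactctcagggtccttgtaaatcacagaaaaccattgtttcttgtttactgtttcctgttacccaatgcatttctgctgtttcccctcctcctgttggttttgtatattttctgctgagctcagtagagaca
Fpr2: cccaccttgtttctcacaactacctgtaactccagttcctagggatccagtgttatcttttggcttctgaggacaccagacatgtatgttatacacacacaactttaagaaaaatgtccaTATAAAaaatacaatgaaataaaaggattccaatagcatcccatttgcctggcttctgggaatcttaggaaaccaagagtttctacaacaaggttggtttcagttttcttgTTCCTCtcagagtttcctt
Fpr1 held a TATAAA from 227 to 222 bases before its start. Fpr2 held a TATAAA from 130 to 125 bases before its start, and a GAGGAA on the opposite strand from 19 to 14 bases before it. Among 32851 promoter windows of this length, 23.3% held GAGGAA, 9.6% TTGCNNAA and 12.4% TATAAA, and TTGCNNAA was in none of the 8 receptor windows. These matches are letters in a window and were not tested for binding.

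Cxcr2 and Cxcr4 pull neutrophils in opposite directions: Cxcr2 answers the chemokines that call neutrophils out of the marrow, and Cxcr4 answers Cxcl12, which keeps them there. Cxcr2 (ENSMUSG00000026180.8, chromosome 1, 74153989 to 74161246, plus strand) was low, with 160 and 32 counts in the High libraries of K3174 and K3117, 39 and 23 in the Low libraries, and 37 and 19 in the NT libraries. These counts gave 5.38 and 1.42 CPM in High, 1.17 and 0.737 CPM in Low, and 1.62 and 0.571 CPM in NT, with means of 3.40 ± 2.80, 0.953 ± 0.306 and 1.10 ± 0.741 CPM (SD, n = 2 each). High was above NT in both leukemias, but the K3117 High library lay below the K3174 NT library, so the labels overlapped. Cxcr2 rose 2.98-fold in High over NT (log2 1.57 ± 0.37, adjusted p = 0.011; 0.29 without the block) and 3.19-fold in High over Low (log2 1.67 ± 0.37, adjusted p = 0.021; 0.63 without the block). Both calls rested on K3174: without its High library the log2 fold changes were 1.07 and 1.17 (adjusted p = 0.28 and 0.40), and without its Low library High over Low was 1.05 (adjusted p = 0.53). Low over NT was -0.10 ± 0.40 (adjusted p = 0.98), with an interval from -0.97 to 0.77. Cxcr2 shares 4.01% of its 50-base words with other genes.

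Cxcr4 (ENSMUSG00000045382.6, chromosome 1, 128588199 to 128592293, minus strand) had 114 and 74.0 CPM in the High libraries of K3174 and K3117, 98.6 and 85.0 CPM in the Low libraries, and 90.2 and 60.3 CPM in the NT libraries. The labels overlapped. Means were 94.1 ± 28.4 CPM in High, 91.8 ± 9.66 CPM in Low and 75.3 ± 21.1 CPM in NT (SD, n = 2 each). Cxcr4 did not pass in High over NT (log2 0.32 ± 0.13, interval 0.03 to 0.61, adjusted p = 0.13), in Low over NT (0.32 ± 0.13, interval 0.02 to 0.61, adjusted p = 0.32) or in High over Low (0.00 ± 0.13, interval -0.29 to 0.29, adjusted p = 1.0), and in the last of these its sign changed with total counts or upper quartile factors in place of TMM. Per kb, Cxcr4 was 35.7 and 87.7 times Cxcr2 in the High libraries of K3174 and K3117, 142 and 194 times in the Low libraries, and 93.9 and 178 times in the NT libraries. The ratio was lowest in the High library within each leukemia.

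The windows before Cxcr2 (chr1:74153744-74153993, plus strand) and Cxcr4 (chr1:128592300-128592549, minus strand) are printed as those of a receptor that rose in High and of one that did not pass.
Cxcr2: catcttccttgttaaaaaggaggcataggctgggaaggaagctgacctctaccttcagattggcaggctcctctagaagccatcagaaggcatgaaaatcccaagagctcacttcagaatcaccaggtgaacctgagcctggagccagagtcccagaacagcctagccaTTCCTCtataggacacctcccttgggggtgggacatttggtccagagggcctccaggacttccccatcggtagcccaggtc
Cxcr4: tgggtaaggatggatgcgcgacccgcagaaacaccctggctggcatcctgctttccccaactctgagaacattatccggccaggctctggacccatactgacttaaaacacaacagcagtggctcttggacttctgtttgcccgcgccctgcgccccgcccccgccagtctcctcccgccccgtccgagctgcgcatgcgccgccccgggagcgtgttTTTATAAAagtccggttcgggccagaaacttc
Cxcr2 held a GAGGAA on the opposite strand from 81 to 76 bases before its start. Cxcr4 held TATAAA on both strands, from 32 to 27 and from 30 to 25 bases before its start, which overlap. Ccr1 and Cxcr3 were the other receptors with a GAGGAA, and TATAAA was found in Fpr1, Fpr2 and Cxcr4.

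Ccr1 and Ccr2 answer inflammatory CC chemokines. Ccr2 binds Ccl2, Ccl7 and Ccl12 and lets monocytes leave the marrow, and Ccr1 binds Ccl3, Ccl5, Ccl6 and Ccl9. Ccr2 (ENSMUSG00000049103.14) had 49.5 and 80.8 CPM in the High libraries of K3174 and K3117, 36.0 and 69.2 CPM in the Low libraries, and 88.7 and 239 CPM in the NT libraries. Its mean was 65.1 ± 22.1 CPM in High, 52.6 ± 23.4 CPM in Low and 164 ± 106 CPM in NT (SD, n = 2 each). Each NT library lay above the High and Low libraries of both leukemias. Ccr2 fell in High over NT (log2 -1.21 ± 0.16, 2.32-fold lower, adjusted p = 0.00028; 0.24 without the block) and in Low over NT (log2 -1.56 ± 0.16, 2.95-fold lower, adjusted p = 0.0004; 0.71 without the block). High over Low was 0.35 ± 0.16 and did not pass (adjusted p = 0.33), though it passed when the K3117 or the K3174 NT library was left out (adjusted p = 0.026 and 0.023).

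Ccr1 (ENSMUSG00000025804.5) had 14.0 and 12.98 CPM in the High libraries of K3174 and K3117, 6.75 and 6.21 CPM in the Low libraries, and 17.1 and 30.2 CPM in the NT libraries. Its mean was 13.5 ± 0.696 CPM in High, 6.48 ± 0.376 CPM in Low and 23.6 ± 9.27 CPM in NT (SD, n = 2 each). The 3 labels did not overlap: both Low libraries were lowest and both NT libraries highest. Ccr1 fell in Low over NT (log2 -1.84 ± 0.23, 3.58-fold lower, adjusted p = 0.0015; 0.35 without the block) and, by less, in High over NT (log2 -0.78 ± 0.23, 1.72-fold lower, adjusted p = 0.034; 0.19 without the block). It rose 2.08-fold in High over Low (log2 1.06 ± 0.23, adjusted p = 0.022; 0.41 without the block). The call in High over NT was lost without the K3117 High library (log2 -0.54, adjusted p = 0.21) and without the K3117 NT library (-0.29, adjusted p = 0.32), and that in High over Low if the High library of K3174 was left out (0.79, adjusted p = 0.099) and without the K3117 Low library (0.81, adjusted p = 0.28). For Ccr1 and Ccr2 the Low over NT calls were kept whichever library was left out. The dendritic cell marker sums given above were also highest in NT in each leukemia, and were lowest in High, where Ccr1 and Ccr2 were lowest in Low. Tcf4 made up most of these sums, at 217 and 306 CPM in the NT libraries of K3174 and K3117. The monocyte and late neutrophil marker sums went the other way, highest in High and lowest in NT in each leukemia. Monocyte markers summed to 2197 and 3130 CPM in the High libraries of K3174 and K3117, against 975 and 1358 CPM in NT. Of these 10 markers 5 rose and 1 fell in High over NT. The part of these cell types in the Ccr1 and Ccr2 differences was not tested.

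Both genes lie in a cluster of chemokine receptors on chromosome 9 (GRCm38), with Ccr1 on the minus strand from 123962124 to 123968692 and Ccr2 on the plus strand from 124101950 to 124113557. Of the 9 neighbours described here, which lie in the stretch from Limd1 to Ppp2r3d, none passed in either contrast by edgeR, with 0 at an unadjusted p under 0.05 and 0 called by DESeq2 or limma voom. They included the chemokine receptors Ccr9, Cxcr6 and Xcr1, each at 23 counts or fewer in every library. Ccr2 shares 1.91% of its 50-base words with other genes, and Ccr1 shares none.

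**Figure D4:**
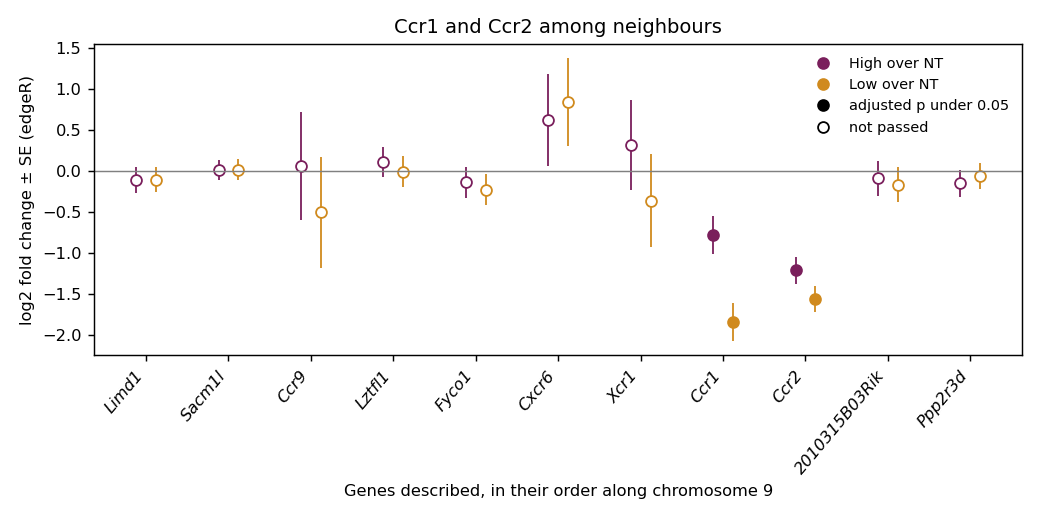
log2 fold changes with their SE (vertical axis) for High over NT and Low over NT of Ccr1, Ccr2 and 9 neighbours in order along chromosome 9; filled points had an adjusted p under 0.05. Ccr1 and Ccr2 are the filled points and lie below 0 in both contrasts.

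Cx3cr1 is the receptor of fractalkine, Cx3cl1, and marks patrolling monocytes and tissue macrophages. Cx3cr1 (ENSMUSG00000052336.7, chromosome 9, 119901616 to 120069879, minus strand) had 10.5 and 37.1 CPM in the High libraries of K3174 and K3117, 15.7 and 44.1 CPM in the Low libraries, and 20.2 and 51.9 CPM in the NT libraries. Its mean was 23.8 ± 18.8 CPM in High, 29.9 ± 20.1 CPM in Low and 36.1 ± 22.4 CPM in NT (SD, n = 2 each), so the labels overlapped across leukemias while the order NT above Low above High held within each. It fell in High over NT (log2 -0.70 ± 0.15, 1.62-fold lower, adjusted p = 0.008; 0.72 without the block), a call lost without the K3174 High library (log2 -0.51, adjusted p = 0.18). Low over NT was -0.30 ± 0.15 (adjusted p = 0.46), and in High over Low it was -0.40 ± 0.15 (adjusted p = 0.20), the second of which passed without the K3117 or the K3174 NT library (adjusted p = 0.025 and 0.031). The annotated span of Cx3cr1 overlaps 9 other genes, and whether the counting used strand is not given, so a part of its counts could belong to them.

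Cxcr3 (ENSMUSG00000050232.6, chromosome X, 101731535 to 101734269, minus strand), which binds Cxcl9 and Cxcl10, had 3 and 1 counts in the High libraries of K3174 and K3117, 1 and 6 in the Low libraries, and 0 and 6 in the NT libraries. The 0 in the K3174 NT library allows up to 3 counts, or 0.131 CPM. No difference was detectable at these counts.

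By the order of the labels, Ccr1, Ccr2, Fpr1 and Fpr2 had their lowest level in Low in both leukemias, as did 6.63% of all genes tested. This order takes no account of spread. By edgeR, Fpr1 and Fpr2 did not pass in Low over NT (adjusted p = 0.37 and 0.54), nor did Ccr2 in High over Low (adjusted p = 0.33). Fpr2 had 48 counts in the Low and 47 in the NT library of K3174. Cx3cr1 was the 1 receptor with NT above Low above High in both, as were 11.0% of all genes, and no receptor ran the other way in both, as 12.7% of all genes did. The order of Cxcr2 and of Cxcr4 differed between the leukemias.

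The leukemias differed in most receptors. Over the 3 labels, 6 of 7 passed in K3174 over K3117, against 9.37% of all genes. Cxcr2 (log2 1.41 ± 0.31, adjusted p = 0.013) and Cxcr4 (0.47 ± 0.11, adjusted p = 0.017) were higher in K3174, as were 3.05% of all genes. Cx3cr1 (-1.55 ± 0.13, adjusted p = 1.3e-05), Ccr2 (-1.03 ± 0.13, adjusted p = 0.00038), Fpr1 (-0.99 ± 0.23, adjusted p = 0.017) and Fpr2 (-0.91 ± 0.18, adjusted p = 0.0062) were lower, as were 6.32% of all genes. All 6 had the same direction in each of the 3 labels. Ccr1 did not pass (-0.22 ± 0.19, adjusted p = 0.63), being close in the High and Low libraries of K3174 and K3117 and lower in K3174 only in NT. With the leukemia alone in the model 0 of 7 passed by edgeR, with 3 at an unadjusted p under 0.05, and adjusted p-values of the 6 ran from 0.073 to 0.87. Without either High library Cxcr2 and Cxcr4 did not pass (adjusted p between 0.057 and 0.12), nor did Fpr1 without either Low library (adjusted p = 0.15). The late neutrophil markers were higher in K3174 for 8 of 12, and in the High libraries that list summed to 7178 CPM in K3174 and 1686 CPM in K3117 beside 12.3 and 20.5 CPM of Fpr2. The monocyte markers, of which 3 of 10 were lower in K3174, summed to 2197 CPM in K3174 and 3130 CPM in K3117 in the same libraries. The part of these cell types in the differences between the leukemias was not tested.

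Transcripts of several ligands of these receptors were present in the same libraries. Of 22 listed ligand genes 17 were tested, and in High over NT 8 rose and 3 fell, against 10.0% and 7.32% of all genes. The median over the list was 0.78 on the log2 scale. Camp, the cathelicidin that is a ligand of mouse Fpr2 and is also on the neutrophil marker list, rose by 6.19 ± 0.31 on the log2 scale (adjusted p = 5.5e-07). Other ligands of Fpr2 rose too: Saa3, a serum amyloid A, by 2.23 ± 0.16 (adjusted p = 4.5e-06) and Anxa1, annexin A1, by 1.77 ± 0.15 (adjusted p = 1.3e-05). Cxcl2, a ligand of Cxcr2, had 16.0 and 28.2 CPM in the High libraries of K3174 and K3117, 5.13 and 10.4 CPM in the Low libraries, and 2.50 and 4.99 CPM in the NT libraries, and rose by 2.58 ± 0.19 (adjusted p = 4.6e-06). The Ccr1 ligands Ccl6 and Ccl9 went opposite ways, with Ccl6 up by 1.92 ± 0.23 (adjusted p = 0.00013) and Ccl9 down to 94.1 and 210 CPM in High, against 160 and 450 CPM in NT (log2 -0.94 ± 0.12, adjusted p = 0.00029). Mif, which binds Cxcr2 and Cxcr4, fell by 0.62 ± 0.17 (adjusted p = 0.023) and Cx3cl1, the ligand of Cx3cr1, by 1.94 ± 0.54 (adjusted p = 0.029), and both lost their call when single libraries were left out. Cxcl12, the ligand of Cxcr4, had 0 counts in all 6 libraries. In Low over NT Camp (log2 3.33 ± 0.30) and Cxcl2 (1.05 ± 0.19) rose and Ccl9 fell (-0.63 ± 0.12). The Cxcl2 call was lost without the Low library of K3174 (adjusted p = 0.061) or of K3117 (0.11), and so was the Ccl9 call (adjusted p = 0.12 and 0.23). In High over Low 6 of 17 rose and none fell, with 4 lower at an unadjusted p under 0.05 and 0 called lower by DESeq2 and by limma voom. Over all genes 4.12% rose and 1.35% fell in High over Low. Without the block none of the 17 ligands passed in these contrasts by edgeR, with 7, 0 and 6 at an unadjusted p under 0.05 for High over NT, Low over NT and High over Low.

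Other receptors for chemoattractants, which detect complement fragments and lipids, rose in the same contrast as the formyl peptide receptors. In High over NT 8 of the 9 tested rose and none fell (median log2 fold change 2.53), and 8 were higher and 0 lower at an unadjusted p under 0.05 (DESeq2 called 6 higher and 0 lower, limma voom 8 and 0). Over all genes 10.0% rose and 7.32% fell in High over NT, and 4.12% rose in High over Low. Without the block 1 of the 8 calls remained, that of C5ar1. Ltb4r1, the high affinity receptor of leukotriene B4, had 120 and 53.6 CPM in the High libraries of K3174 and K3117, 50.8 and 11.9 CPM in the Low libraries, and 9.06 and 1.98 CPM in the NT libraries, and rose 18.4-fold in High over NT (log2 4.20 ± 0.24, adjusted p = 1e-06; 0.09 without the block). C5ar1, the receptor of complement C5a, had 17.7 and 14.6 CPM in High, 3.51 and 2.11 CPM in Low, and 1.53 and 1.05 CPM in NT, and rose 12.6-fold (3.66 ± 0.24, adjusted p = 2.2e-06; 0.016 without the block). C5ar2 (3.49 ± 0.51), S1pr4 (1.12 ± 0.18) and Ptafr (1.10 ± 0.19) rose as well, though C5ar2 had only 5 and 4 counts in the NT libraries of K3174 and K3117. In Low over NT Ltb4r1 (2.50 ± 0.23, adjusted p = 0.00021) and C5ar1 (1.11 ± 0.25, adjusted p = 0.035) rose, the second not without either Low library (adjusted p = 0.053 and 0.47), and in High over Low 6 of 9 rose. Both had a higher level in Low than in NT in each leukemia, whereas Fpr1 and Fpr2 had a lower one. Neither formyl peptide receptor passed in Low over NT by edgeR (adjusted p = 0.37 and 0.54). Of the other 13 chemokine receptors 7 were tested and 1 passed in High over NT, where 17.3% of all genes passed. Of 5 atypical chemokine receptors 2 were tested and Ccrl2, which binds chemerin, rose by 0.93 ± 0.21 in High over NT (adjusted p = 0.0089).

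Genes that pass on the signal rose in part. Of 20 G protein and effector genes, all tested, 9 rose and 1 fell in High over NT, with a median of 0.27. Over all genes 10.0% rose and 7.32% fell in that contrast, and 3.34% passed in Low over NT. The Src family kinase Fgr (log2 2.34 ± 0.21), the phosphoinositide 3-kinase gamma adaptor Pik3r6 (1.40 ± 0.16), the phospholipase Plcb2 (1.14 ± 0.13) and the GTPase Rac2 (0.60 ± 0.12) were among the 5 risers with the smallest p, and the G protein subunit Gng2 fell (-0.60 ± 0.16, adjusted p = 0.028; 0.35 without the K3117 High library). Of 12 desensitisation genes 7 rose and none fell, with 8 higher and 0 lower at an unadjusted p under 0.05, 7 higher and 0 lower by DESeq2 and by limma voom, and a median of 0.52. They were led by the arrestins Arrb1 (1.23 ± 0.12, adjusted p = 2.8e-05) and Arrb2 (1.14 ± 0.13, adjusted p = 8.9e-05), with Rgs19, Grk2 and Grk3 at 0.58 ± 0.11, 0.56 ± 0.12 and 0.74 ± 0.16, each of which lost its call without the K3174 High library. Without the block 4 of the 10 effector calls and 2 of the 7 desensitisation calls remained. In Low over NT 2 effector genes passed, Plcb2 (0.69 ± 0.13) among them, and neither kept its call without either Low library, while no desensitisation gene passed, with 2 higher and 1 lower at an unadjusted p under 0.05 and 0 called by DESeq2 or limma voom.

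**Figure D5:**
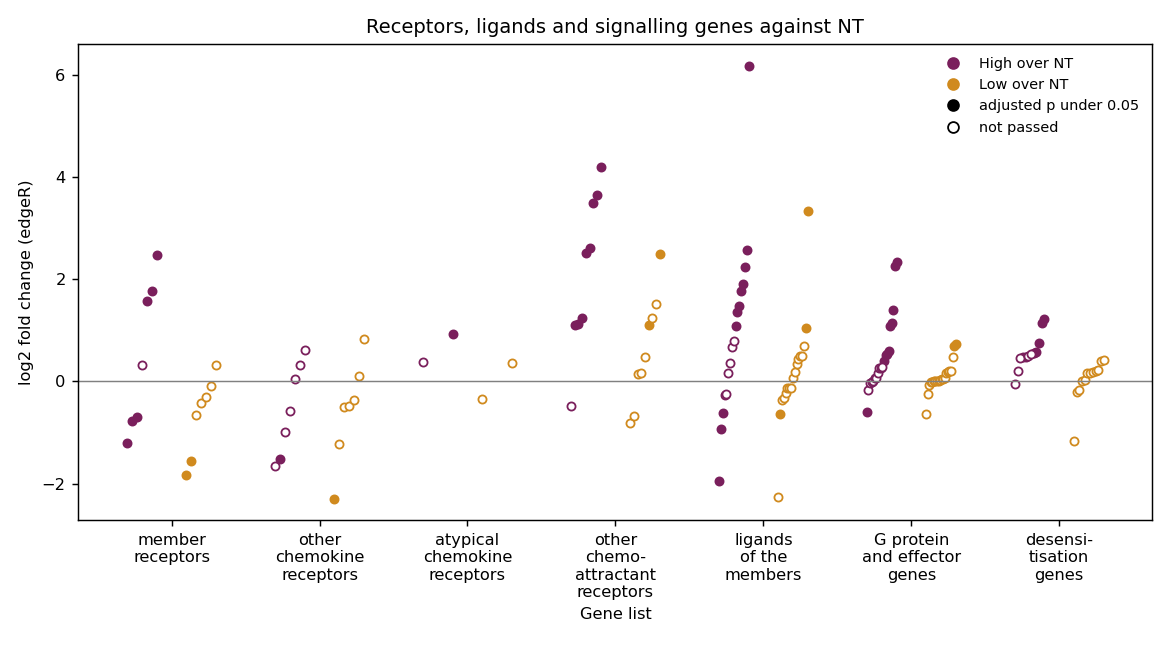
log2 fold changes (vertical axis) of each tested gene of the receptor, ligand and signalling lists for High over NT and, to the right of it in each list, Low over NT; filled points had an adjusted p under 0.05. Other chemoattractant receptors reach 4.20 and the ligand Camp 6.19 in High over NT, and the desensitisation genes have no filled point in Low over NT.

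Among all genes tested, those with the nearest profile over the 6 libraries, by the root mean square difference of mean-centred log2 CPM, were Marco (0.180) and Shtn1 (0.215) for Fpr1 and Gp6 (0.270) and Bst1 (0.298) for Fpr2, where the median gene was at 1.15 and 1.36. Marco, a scavenger receptor of macrophages, had 19.6 and 52.5 CPM in the High libraries of K3174 and K3117, 4.26 and 10.9 CPM in the Low libraries, and 8.62 and 15.2 CPM in the NT libraries, the same order of libraries within each leukemia as Fpr1. For Cxcr2 the nearest were Slc2a3 (0.240), a glucose transporter, and Slc45a3 (0.289), with a median of 1.01 over all genes. Slc2a3 is among the genes that share 50-base words with Cxcr2, and the part of shared reads in this likeness was not tested. For Cxcr4 they were Gm14167 (0.0440) and Cry2 (0.0524), a clock gene, with a median of 0.371. For Ccr1 they were K230010J24Rik (0.229) and Arc (0.280), for Ccr2 Dnaja4 (0.190), a chaperone, and Oas2 (0.209), an interferon-induced enzyme, and for Cx3cr1 Prox1 (0.103) and Dusp18 (0.111), with medians of 0.812, 0.875 and 0.863. These genes were picked for their small distance, so lying under the median, or sharing an order of libraries as Marco does, follows largely from that choice. Several of them were low, such as Arc at 0.361 CPM or less and Prox1 at 0.722 CPM or less, so counting error adds to their profiles. Gp6 had 0.445 CPM or less, and 0 CPM in the Low and NT libraries of K3174.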

How the data were processed

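RNA-seq counts were analysed for 6 libraries, 1 per label (High, Low, NT) in each of K3174 and K3117. The authors deposited whole-number counts per gene, used unchanged. Per the submitters' processing notes, the tools were STAR, STAR-Fusion, kallisto and DESeq2 and the build mm10, with no roles or versions, so the counting tool, annotation and strand use were not given in the sources used here. Paired reads of 150 bp were made from RNeasy-extracted RNA, per the labels' protocols.

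Symbols matched 99.48% of IDs, and 259 IDs had none. In R 4.3.3, edgeR 4.0.16 kept 15812 genes with its expression filter, scaled libraries by TMM (factors 0.973 to 1.04) and fitted a quasi-likelihood model with label and leukemia to all 6 libraries (2 residual and 9.38 prior degrees of freedom, common biological coefficient of variation 12%). p-values were adjusted over all genes by Benjamini-Hochberg with a threshold of 0.05, and the SE is the log2 fold change over the root of F. The script was tested on simulated counts. CPM use TMM library sizes, and Poisson intervals and the floor of 3 counts cover counting error only. Every pair of libraries differed by more than sampling noise, with a chi-square of 26.9 or more per degree of freedom.

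The leukemia is a block because each K number stands on 1 library of every label and the labels' protocols sort the populations from transduced marrow. The titles alone tie a K number to 1 leukemia. Deviations of same-numbered libraries correlated at 0.44 (High and NT), 0.57 (Low and NT) and 0.64 (High and Low). Separate mice are not stated, so p-values may measure only technical spread.

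The members and the 16 other gene lists, 7 of pathway genes and 9 of markers, were chosen with earlier results of these data known. Named genes were every receptor, Dot1l, the 2 nearest profiles of each tested receptor, up to 5 called genes per direction and pathway list by smallest p, and up to 3 called genes per marker list by level. Genes named because of their place beside a receptor, at 0 counts, or to show what made up the stromal and endothelial sums, were added after their values were seen. Some genes of the lists, and 1 tested gene of the stretch on chromosome 9, are not reported here. Alternatives were 3 normalizations, 2 filters, DESeq2 1.42.0, limma 3.58.1 voom, no block, and leaving out each library.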

Additional observations from a re-analysis of the deposited data

Results flagged for a closer look

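For Cxcr2 the difference between Low and NT had opposite signs in the leukemias. It was -0.45 in K3174 and 0.33 in K3117 on the log2 CPM scale with a prior count of 2, and -0.78 for K3174 minus K3117. The counts behind it were 39 in the Low and 37 in the NT library of K3174, and 23 in the Low and 19 in the NT library of K3117. For Cxcr4 the difference between High and Low was 0.21 in K3174 and -0.20 in K3117, and 0.41 for K3174 minus K3117. Neither difference between the leukemias was tested, since each label has 1 library per leukemia.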

How the results depend on the processing

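Of 392 alternative values of single receptors, 348 kept direction and side of the threshold, 32 lost a call, 4 gained one and 8 turned sign. Without the replicate block, 0 of 7 receptors passed in each of the 4 contrasts by edgeR (4, 2, 4 and 3 at an unadjusted p under 0.05), and over all genes 493 passed for High over NT, 0 for Low over NT (950 unadjusted), 0 for High over Low (1238 unadjusted) and 90 for K3174 over K3117, against 2741, 528, 866 and 1481 with it. With no filter on low counts 1071 genes passed for Low over NT and 1425 for High over Low. The other scalings, filters and tools left the same receptors called in each contrast. Leaving out 1 library gave 4 to 6 receptors for High over NT, 2 for Low over NT, 2 to 6 for High over Low and 4 to 6 for K3174 over K3117, and 1927 to 4394, 144 to 1483, 335 to 1982 and 829 to 2642 genes in the same order. Sign changes, none of a called value, were Cxcr4 in High over Low with total counts (-0.038), upper quartile factors (-0.061), no filter (-0.020), without the K3174 High (-0.11) and without the K3174 Low library (-0.19; 0.18 at most over the libraries left out), Cxcr2 in Low over NT without the K3174 Low library (0.50; -0.56 at least), and Ccr1 in K3174 over K3117 without the K3174 (0.12) or the K3117 NT library (0.11; -0.38 at least). Of High over NT calls over all genes 57.8% were higher, against 49.1% with total counts and 43.9% with upper quartile factors; over all genes the median was -0.01 and, with upper quartile factors, -0.11. The cause of these changes was not tested beyond the fewer samples or other genes that the alternatives use. Counts of 160 or fewer for Cxcr2 and 6 or fewer for Cxcr3 limit what can be said of those receptors.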
